A study of Homo sapiens with 6 samples.

Results

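Keratins are the intermediate filament proteins of epithelial cells. A type I keratin assembles with a type II keratin into a filament that gives the cell its mechanical strength. Which pairs a cell makes follows its place in the epithelium: KRT5 and KRT14 in the basal layer of stratified epithelia, KRT1 and KRT10 or KRT4 and KRT13 above it, KRT6 and KRT16 or KRT17 where the epithelium is wounded or proliferates fast, and KRT8 and KRT18 in simple, single-layered epithelia. Hair keratins build the hair shaft, and others the sheaths of the follicle. The type II genes, together with KRT18, form a cluster on chromosome 12, and the other type I genes form one on chromosome 17.

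The keratin genes described here are the 55 of 60591 rows of a gene count table whose symbol is KRT followed by a number and at most a letter A, B or C. Rows of keratin pseudogenes and of keratin-associated proteins were left out. There are 29 type I and 26 type II genes, with 27 rows on chromosome 12 and 28 on chromosome 17. The counts come from RNA sequencing of KYSE150, a long-established line of human squamous carcinoma cells from the oesophagus. The phorbol ester TPA, an activator of protein kinase C, was given to 3 samples at 10 ng/ml for 24 h after a night without serum. The reference was 3 samples labelled DMSO, the solvent, whose labels carry the same protocol text and give no dose or time of their own. No group carried a genetic change, and the labels do not say whether the samples of a group were grown separately, so the error behind each p-value is that between these libraries and may be technical.

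Of the 55 keratin rows, 11 had no count in any library, 29 had counts too low for the test (at most 42 counts in a library) and 15 were tested. By the class each keratin is known for, 3 of 3 basal, 3 of 5 stress, 3 of 5 simple epithelial, 2 of 15 suprabasal and other stratified, 4 of 17 hair shaft and 0 of 9 follicle sheath keratins were tested. Libraries held 27702329 to 33965547 counts, and values below are CPM, counts scaled to a common library size with TMM factors. The libraries numbered 1 stood apart. Across the genes tested, the correlation of log2 CPM between TPA 1 and DMSO 1 was 0.980, against 0.939 between TPA 1 and TPA 2 and 0.948 between TPA 1 and TPA 3, whereas TPA 2 with TPA 3 (0.996) and DMSO 2 with DMSO 3 (0.996) were close. The close libraries were not copies: their counts differed beyond Poisson sampling, with a chi-square per degree of freedom of 6.17 between TPA 2 and TPA 3 and 7.33 between DMSO 2 and DMSO 3. In numbers 2 and 3 the TPA to DMSO ratio also went up with the GC content of the transcript (Spearman 0.70 and 0.63 over 11800 genes), and in number 1 it did not (-0.12). The keratin results are therefore also given without the libraries numbered 1, and with library number as a block (a term for the number in the fit) where that changes a call. The squamous label was met by 12 of 13 squamous markers, which averaged at least 1 CPM over all libraries. SOX2 was the exception, with at most 0.302 CPM in the TPA libraries and 1.95 CPM in the DMSO libraries. Among markers of other cell types DCN, TYR, KDR, TFF3, ATOH1 and ISL1 had no count in any library. The summed CPM of the fibroblast markers was 3.05 to 10.5 with TPA and 5.43 to 12.2 with DMSO, that of the leukocyte markers 1.27 to 1.70 with TPA and 2.60 to 4.03 with DMSO, and that of the melanocyte markers 5.09 to 10.5 with TPA and 8.06 to 12.9 with DMSO. The leukocyte sum was lower in all TPA libraries, and its part in the keratin results was not tested. Endothelial markers summed to 0.979 to 2.25 CPM with TPA and 2.20 to 2.93 CPM with DMSO, and Merkel cell markers to 2.28 to 5.98 CPM with TPA and 4.27 to 5.02 CPM with DMSO. The columnar epithelial list summed to 128 to 153 CPM with TPA and 118 to 149 CPM with DMSO, nearly all of it from EPCAM, a surface protein of many carcinomas.

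The promoters of the 2 keratin genes that passed the test, KRT33B and KRT34, are shown first, with that of KRT5, the basal keratin with the most reads, beside them. Each sequence runs from 250 bases before to 50 bases after the gene start, read 5′ to 3′ on the gene's strand, from RefSeq on GRCh38.p14. For KRT34 and KRT5 the RefSeq start lies inside the gene range given further on, which comes from GENCODE and begins further upstream. The windows are chr17:41369764-41370063 for KRT33B, chr17:41382257-41382556 for KRT34 and chr12:52520345-52520644 for KRT5, all on the minus strand. Capitals mark TATAAA, the core of the TATA box.
KRT33B: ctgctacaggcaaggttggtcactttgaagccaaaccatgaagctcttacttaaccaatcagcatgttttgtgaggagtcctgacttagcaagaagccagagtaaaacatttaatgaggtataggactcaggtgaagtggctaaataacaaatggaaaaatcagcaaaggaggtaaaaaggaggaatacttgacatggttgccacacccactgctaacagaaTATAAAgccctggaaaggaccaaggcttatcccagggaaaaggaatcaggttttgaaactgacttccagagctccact
KRT34: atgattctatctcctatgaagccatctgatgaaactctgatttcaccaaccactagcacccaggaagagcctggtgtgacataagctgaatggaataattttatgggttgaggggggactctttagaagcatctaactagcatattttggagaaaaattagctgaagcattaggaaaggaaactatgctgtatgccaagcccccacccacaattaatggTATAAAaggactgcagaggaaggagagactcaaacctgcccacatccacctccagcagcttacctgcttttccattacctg
KRT5: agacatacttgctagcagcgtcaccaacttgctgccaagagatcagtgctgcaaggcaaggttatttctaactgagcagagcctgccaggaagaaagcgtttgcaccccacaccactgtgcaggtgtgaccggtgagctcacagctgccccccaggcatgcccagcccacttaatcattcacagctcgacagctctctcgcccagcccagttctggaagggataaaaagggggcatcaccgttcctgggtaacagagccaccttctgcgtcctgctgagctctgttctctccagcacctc
TATAAA began 28 bases before the start of KRT33B and 31 bases before that of KRT34, and these letters were not in the KRT5 window. An alignment of the KRT33B and KRT34 windows had 169 identical bases at 280 aligned positions (60.4%), against 54.5% for KRT33B with KRT5 and 50.9% for KRT34 with KRT5. On either strand, TATAAA was in 11.5% of 35116 promoter windows of the same length and in 21 of the 38 windows listed for 34 keratin genes. TGANTCA, the letters that AP-1 factors bind, was in 7.71% of all windows and in 0 of the 38 keratin windows. TGANNTCA, searched as well and a base longer than TGANTCA so that the same bases cannot match both, was in 11.5% of all windows and in 9 of 38 keratin windows, KRT34 and KRT5 among them. A match is a description of letters and not a site of binding.

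TPA against DMSO asked which keratins differ after 24 h with TPA. In the test over all genes, 2 hair shaft keratins rose, none fell and 13 did not pass, against 0.861% of all 21825 genes tested that passed as higher and 1.26% that passed in either direction. At an unadjusted p under 0.05 there were 8 of the 15 and 22.1% of all genes tested. DESeq2 called 7 higher and 0 lower, where it called 7.8% of all genes higher and 4.19% lower. All 3 TPA libraries lay above all 3 DMSO libraries for 5 keratins (KRT7, KRT8, KRT18, KRT33B and KRT34), as they did for 14.3% of genes tested, and below for 0, as for 15.2% of genes tested. The median log2 fold change was 0.83 over the 15 keratins and -0.11 over all genes tested. With library number as a block, 6 keratins passed as higher (KRT6A, KRT7, KRT8, KRT18, KRT33B and KRT34) and 1, KRT5, as lower, while 4.58% of all genes passed as higher and 6.52% as lower. Adding a correction for GC content to the block left the same 6 higher and 3 lower (KRT5, KRT17 and KRT80), against 9.84% and 11.4% of all genes. With GC correction and block the median log2 fold change was 0.24 over the 15 keratins and -0.15 over all genes tested. KRT8 was then at 0.91, KRT18 at 1.11, KRT7 at 1.01 and KRT5 at -2.48. Without the libraries numbered 1, 12 of 18 keratins tested were higher and 1, KRT5, was lower, against 32.2% and 33.3% of all genes, so on those 4 libraries a call is common. The 12 were KRT6A, KRT6B, KRT7, KRT8, KRT10, KRT13, KRT14, KRT16, KRT18, KRT33B, KRT34 and KRT81. In that fit and in the blocked fits, the closeness of numbers 2 and 3 makes the spread small, and p-values may be too small. The fit without the libraries numbered 1 also had no GC correction, and kept the numbers whose ratio went up with GC content. Of its 12, KRT10, KRT14, KRT16 and KRT81 were not called with GC correction and block (log2 fold change -0.14, 0.24, -0.38 and 1.52). KRT6B and KRT13 were not tested there.

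**Figure D1:**
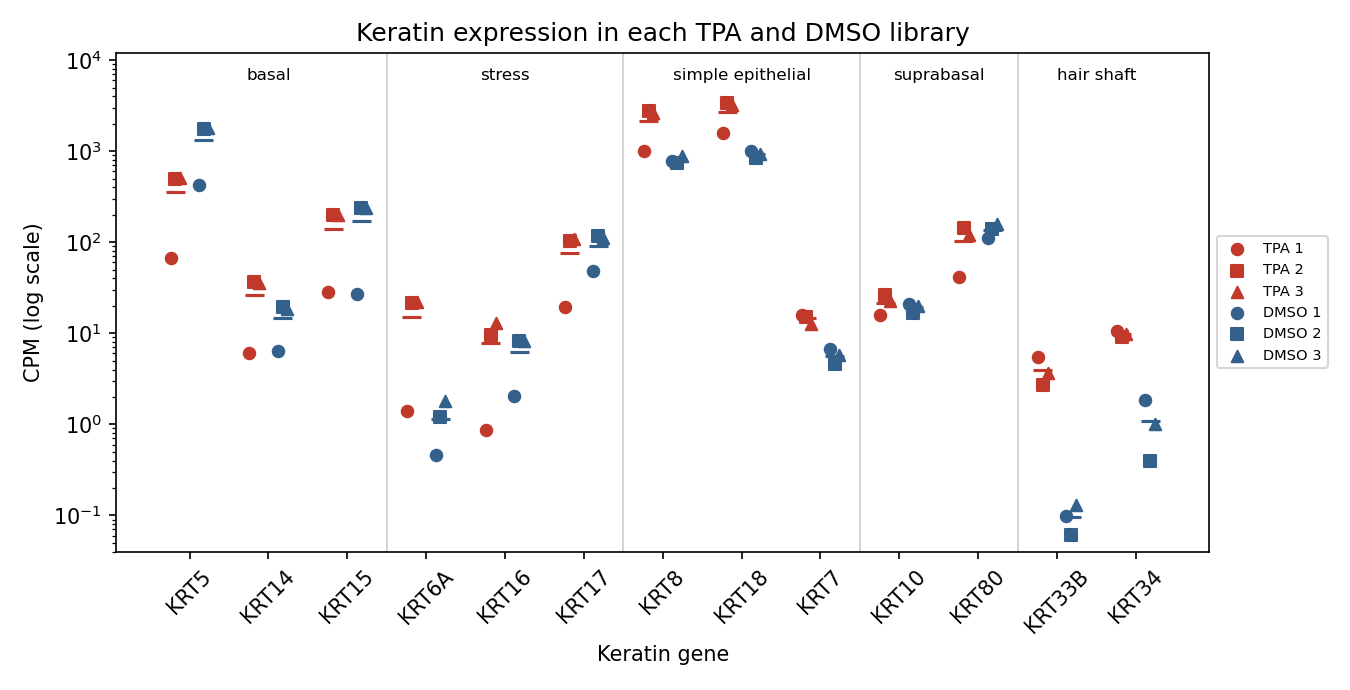
CPM on a log scale for the 13 keratins named by rule, grouped by class, with 1 point for each library (TPA in red, left of DMSO in blue, symbols for library numbers) and bars at the group means. The 3 TPA points lie above the 3 DMSO points for KRT8, KRT18, KRT7, KRT33B and KRT34, and the libraries numbered 1 are lowest in their group for KRT5, KRT6A, KRT16 and KRT17.

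The keratins that rose are known from the hair shaft. KRT33B, a type I keratin of the hair cortex (chr17:41363494-41369800), had 5.55, 2.72 and 3.68 CPM in the TPA libraries, against 0.0987, 0.0610 and 0.130 CPM in the DMSO libraries. Every TPA library was far above every DMSO library, where the gene was close to undetected, with 3, 2 and 4 counts. Its log2 fold change was 5.31 ± 0.48 (SE, edgeR quasi-likelihood adjusted p = 0.0202), a 39.7-fold difference of the fitted levels. KRT34, a neighbouring type I hair keratin (chr17:41377650-41382403), had 10.7, 9.11 and 9.91 CPM with TPA and 1.84, 0.397 and 1.01 CPM with DMSO. The groups did not overlap, and the TPA libraries were nearly level while the DMSO libraries varied. KRT34 rose by 3.19 ± 0.51 on the log2 scale (adjusted p = 0.0411), a 9.13-fold difference. By library number 1, 2 and 3 the log2 ratio was 5.59, 5.17 and 4.66 for KRT33B. For KRT34 it was 2.52, 4.47 and 3.27. With the number as a block the adjusted p was 9.03e-05 for KRT33B and 6.45e-04 for KRT34. Without both libraries numbered 1 the log2 fold change was 5.18 ± 0.40 for KRT33B (adjusted p = 1.56e-08) and 3.92 ± 0.26 for KRT34 (adjusted p = 2.54e-09). Leaving out a library kept the size but not always the call. For KRT33B the adjusted p was 0.0559 without TPA 3, 0.191 without DMSO 2 and 0.160 without DMSO 3, at log2 fold changes from 5.08 to 5.58 over all 6 such fits. For KRT34 it was 0.105 without TPA 2, 0.130 without TPA 3, 0.234 without DMSO 2 and 0.276 without DMSO 3, at log2 fold changes from 2.80 to 3.82.

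The other hair keratins were low in level. KRT81, a type II hair keratin, had 1.49, 3.29 and 3.68 CPM with TPA and 1.58, 0.366 and 0.554 CPM with DMSO, which overlap through the libraries numbered 1 (log2 fold change 1.76 ± 0.61, adjusted p = 0.151). It was called higher by DESeq2 (adjusted p = 0.0299), without TPA 1 (2.18, adjusted p = 0.00958) and without both libraries numbered 1 (3.07 ± 0.28, adjusted p = 8.09e-08). Without TPA 1, 5577 of 22633 genes tested passed as higher and 6297 as lower, so a call in that fit is common. KRT86, a near relative of KRT81, had 1.21 to 1.85 CPM with TPA and 1.01 to 1.22 CPM with DMSO (0.38 ± 0.31, adjusted p = 0.509). Reads of these are uncertain, since 44.6% of the 50-base windows of the KRT81 transcript and 39.2% of those of KRT86 also stand in transcripts of other genes. For KRT33B that share was 27.7%, mostly with KRT33A, which itself had 2 counts over the TPA libraries and 1 over the DMSO libraries. For KRT34 it was 11.4%. Of the 13 hair shaft keratins not tested, KRT32 of the hair cuticle had 2, 13 and 4 counts with TPA and 1 in each DMSO library, KRT83 had 5 counts over the TPA libraries and 0 over the DMSO libraries, and no other reached 5 counts over all libraries. As the DMSO total of KRT83 is 0, its TPA level was set against a floor of 3 DMSO counts over the group, a ratio of 1.78. That ratio takes the 5 TPA counts as exact, so it is not a lower bound on the fold. KRT83 is also among the transcripts that share windows with KRT81.

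The simple epithelial keratins KRT8 and KRT18 were the most abundant keratins in the TPA libraries. KRT8, the type II partner (chr12:52897187-52949954), had 1003, 2786 and 2636 CPM with TPA and 774, 741 and 882 CPM with DMSO. The groups did not overlap, but TPA 1 stood much nearer to the DMSO libraries than TPA 2 and TPA 3 did. The log2 fold change of KRT8 was 1.42 ± 0.37 with adjusted p = 0.0881, and with the block it was 1.30 ± 0.31 with adjusted p = 0.0275. Without both libraries numbered 1 it was 1.89 ± 0.09 (adjusted p = 8.72e-11). KRT18, its type I partner (chr12:52948871-52952901), had 1598, 3382 and 3192 CPM with TPA and 1009, 838 and 923 CPM with DMSO. Again the groups were apart, with TPA 1 the lowest of the TPA libraries. The log2 fold change of KRT18 was 1.56 ± 0.30 (adjusted p = 0.0578), and 1.49 ± 0.30 with the block (adjusted p = 0.0140). Without both libraries numbered 1 KRT18 was at 2.05 ± 0.08 (adjusted p = 9.44e-12). By number 1, 2 and 3 the log2 ratio of KRT8 was 0.37, 1.91 and 1.58. That of KRT18 was 0.66, 2.01 and 1.79.

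KRT7, a type II keratin of ducts and glands (chr12:52232520-52252186), was much lower in level. It had 16.0, 15.2 and 12.7 CPM with TPA and 6.65, 4.58 and 5.73 CPM with DMSO, with no overlap and similar ratios in all numbers (log2 1.26, 1.73 and 1.15). The log2 fold change was 1.37 ± 0.25 (adjusted p = 0.0512), and the block gave 1.38 ± 0.25 (adjusted p = 0.00890). Leaving out both libraries numbered 1 gave 1.59 ± 0.15 for KRT7 (adjusted p = 1.23e-07). KRT19, the type I keratin that can pair with KRT7, had 0, 0 and 4 counts with TPA and 1, 2 and 3 with DMSO. KRT20, a marker of intestinal epithelium, had 2 counts over the TPA libraries and 3 over the DMSO libraries. At these counts no difference in KRT19 or KRT20 could be detected.

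These genes share sequence or position with others, and the strand setting of the counting is not given in the sources used here. The exons of KRT8 and KRT18 overlap by 525 bases on opposite strands, and reads there could be told apart only if strand was kept and used. In 50-base windows 52.5% of the KRT18 transcript and 39.7% of the KRT8 transcript match other transcripts, which include many pseudogenes. KRT18 pseudogene rows together held 1.35%, 0.342% and 0.370% as many counts as KRT18 itself with TPA and 2.16%, 2.04% and 2.39% with DMSO. The exons of KRT7 overlap those of its antisense gene KRT7-AS by 282 bases and those of the pseudogene KRT87P by 32 bases. KRT7-AS had 91, 73 and 72 counts with TPA and 31, 19 and 22 with DMSO, a log2 fold change of 1.80 ± 0.34 (adjusted p = 0.0581), where KRT7 had 390 to 452 counts with TPA and 150 to 202 with DMSO. KRT87P had 107, 85 and 94 counts with TPA and 35, 33 and 44 with DMSO (1.45 ± 0.30, adjusted p = 0.0644). It passed as higher with the block (adjusted p = 0.0202), as did 4.58% of all genes, and shares windows with KRT81 and KRT86. Over all 148 keratin pseudogene rows, 103 had a count, 27 were tested and 0 passed the test. At an unadjusted p under 0.05 there were 7 (22.1% of all genes tested), and DESeq2 called 2 higher and 2 lower (12% of all genes in either direction), both close to the share over all genes.

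The 3 basal keratins differed from each other. KRT5, the type II basal keratin (chr12:52514575-52520687), had 66.7, 490.5 and 509 CPM with TPA and 428, 1736 and 1779.9 CPM with DMSO. The ranges overlap because DMSO 1 lay below TPA 2 and TPA 3, while within every number the TPA library was the lower of the pair, at log2 ratios of -2.68, -1.82 and -1.81. The log2 fold change of KRT5 was -1.89 ± 0.79 with adjusted p = 0.218, and with the number as a block it was -2.10 ± 0.27 with adjusted p = 0.00151. KRT14, the type I partner of KRT5, had 6.05, 36.7 and 35.7 CPM with TPA and 6.45, 19.3 and 18.3 CPM with DMSO. TPA 2 and TPA 3 were the highest, and the libraries numbered 1 were level with each other. Its log2 fold change was 0.83 ± 0.68 (adjusted p = 0.502), and 0.62 ± 0.27 with the block (adjusted p = 0.144). KRT14 passed as higher without TPA 1 (1.41, adjusted p = 0.0203) and without both libraries numbered 1 (1.10 ± 0.10, adjusted p = 9.36e-08), where KRT5 passed as lower at -1.66 ± 0.08 (adjusted p = 5.86e-11). Calls are common in these fits: without TPA 1, 5577 of 22633 genes tested passed as higher and 6297 as lower. KRT15, a further type I keratin of basal cells, had 28.7, 199 and 198 CPM with TPA and 27.0, 241 and 240.4 CPM with DMSO (-0.26 ± 0.89, adjusted p = 0.884, and -0.13 ± 0.08 with adjusted p = 0.163 without both libraries numbered 1). In KRT15 the spread between numbers was far larger than any difference between the groups. In a bulk sample, fewer cells that express a gene and less RNA per cell cannot be told apart, which holds for every value here.

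The stress keratins differed among themselves. KRT6A, a type II keratin induced in wounded and fast-growing epithelium (chr12:52487174-52493257), had 1.41, 21.7 and 22.2 CPM with TPA and 0.461, 1.19 and 1.82 CPM with DMSO. TPA 2 and TPA 3 were far above the rest, and TPA 1 lay within the range of the DMSO libraries. The log2 fold change of KRT6A was 3.70 ± 0.98 with adjusted p = 0.0898, and with the block it was 3.35 ± 0.43 with adjusted p = 0.00153. Leaving out both libraries numbered 1 gave 4.02 ± 0.17 for KRT6A (adjusted p = 2.44e-11). By number 1, 2 and 3 the log2 ratio was 1.58, 4.17 and 3.59. KRT16, its type I partner, had 0.870, 9.51 and 13.1 CPM with TPA and 2.04, 8.30 and 8.18 CPM with DMSO, so the groups overlap (0.35 ± 0.87, adjusted p = 0.838). The sign for KRT16 differed between numbers, with log2 ratios of -1.21, 0.20 and 0.68, and the fold change itself turned to -0.0043 with the block and was 0.61 ± 0.15 without both libraries numbered 1, where KRT16 was called higher (adjusted p = 0.00212). KRT17, the other type I stress keratin, had 19.3, 102 and 109.9 CPM with TPA and 48.8, 116 and 110.2 CPM with DMSO (-0.25 ± 0.62, adjusted p = 0.836, and 0.06 ± 0.08 with adjusted p = 0.535 without both libraries numbered 1). Numbers 2 and 3 were nearly level for KRT17 and number 1 was lower with TPA.

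KRT6B and KRT6C, near copies of KRT6A, were not tested. KRT6B had 0, 16 and 34 counts with TPA and 0, 3 and 2 with DMSO, and without the libraries numbered 1 it was among the keratins called higher. KRT6C had 6 counts, all in TPA 2, and 0 with DMSO. Of the KRT6A transcript 39.1% of 50-base windows match other transcripts, above all KRT6C (35.2%), so counts within this trio are uncertain. The matching share was 22.0% for KRT16, 17.4% for KRT17 and 23.8% for KRT14, genes with copies elsewhere on chromosome 17, and 3.99% for KRT5.

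**Figure D2:**
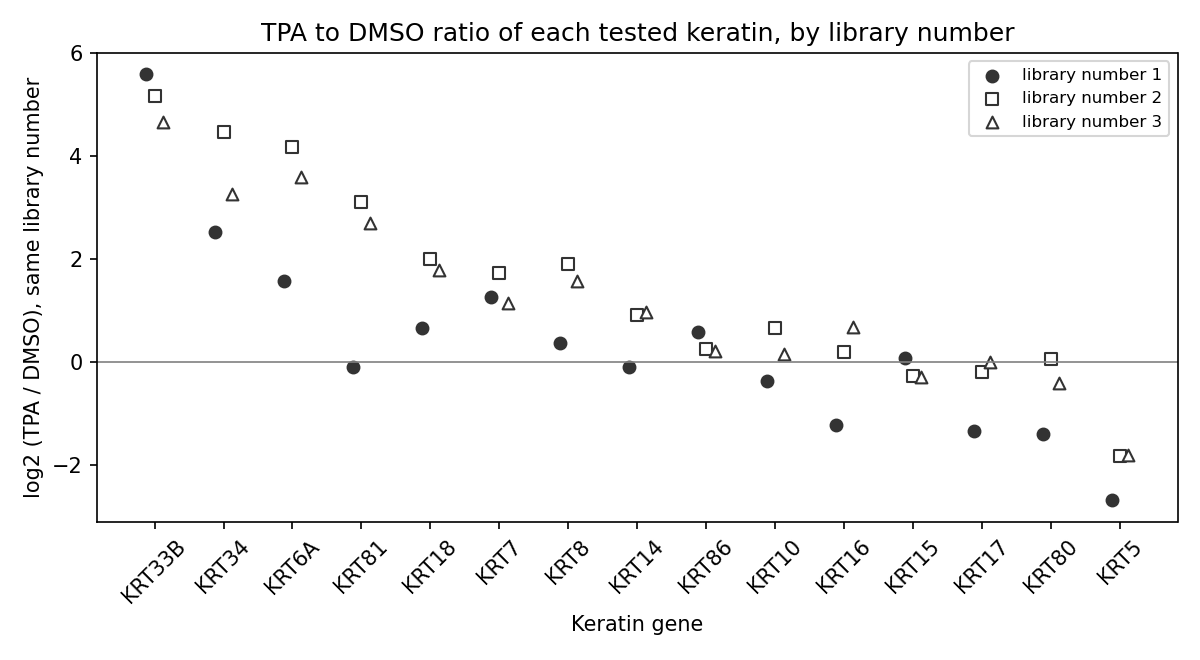
Log2 ratio of the TPA library to the DMSO library of the same number for the 15 tested keratins, ordered by their mean (filled points for number 1, open points for numbers 2 and 3). The ratio was above 0 in all 3 numbers for 7 keratins and below 0 in all 3 for 2 (KRT5, and KRT17 with number 3 close to 0). Number 1 lies apart, below numbers 2 and 3, for KRT6A, KRT8, KRT18 and KRT81, and also for KRT5, KRT14, KRT16, KRT17 and KRT80.

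Among suprabasal keratins, only KRT10 and KRT80 had enough reads for the test, and neither passed it. KRT10, the type I keratin of differentiating epidermis, had 16.0, 26.6 and 22.6 CPM with TPA and 20.7, 16.8 and 20.2 CPM with DMSO. The groups overlap, and the log2 fold change was 0.17 ± 0.26 (adjusted p = 0.717), which turned to -0.14 ± 0.15 with GC correction and block and to -0.087 by library size only. Without TPA 1 it was 0.46 (adjusted p = 0.0420) and without both libraries numbered 1 it was 0.56 ± 0.12 (adjusted p = 7.31e-04), both calls as higher. Such calls were common, at 5577 of 22633 genes tested without TPA 1 and 7216 of 22421 without both libraries numbered 1. KRT1, the type II partner of KRT10, had 1 count in all 6 libraries together. KRT80, a type II keratin of many epithelia, had 42.1, 145 and 121 CPM with TPA and 110.0, 139 and 159.6 CPM with DMSO. TPA 1 stood apart, below the rest (-0.41 ± 0.43, adjusted p = 0.609), and without both libraries numbered 1 the log2 fold change was -0.01 ± 0.10 (adjusted p = 0.912). With GC correction and block KRT80 passed as lower, at -0.95 ± 0.16 (adjusted p = 0.0150), and so did KRT17, at -0.86 ± 0.16 (adjusted p = 0.0182).

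KRT13 and KRT4, the suprabasal pair of the normal oesophagus, were near the limit of detection. KRT13, the type I member, had 5, 36 and 42 counts with TPA and 0, 8 and 4 with DMSO. Without the libraries numbered 1 it was tested and called higher. KRT4, the type II member, had 2, 12 and 4 counts with TPA and 7, 5 and 13 with DMSO, which overlap. KRT23, a type I keratin, had 4, 5 and 9 counts with TPA and 0 in every DMSO library. Against a floor of 3 DMSO counts over the group its TPA level gave a ratio of 6.40, with the TPA counts taken as exact. KRT79 had 2, 10 and 7 counts with TPA and 0, 1 and 1 with DMSO. KRT9, known from palm and sole skin, had 3, 16 and 4 counts with TPA and 3, 1 and 1 with DMSO. KRT78 had 10, 4 and 2 counts with TPA and 5, 5 and 12 with DMSO. The remaining suprabasal keratins had at most 11 counts over all libraries, and the 3 follicle sheath keratins with any count (KRT71, KRT74 and KRT75) at most 7.

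Levels of different genes were set side by side per kilobase of transcript. This corrects for length but not for sequence shared with other genes. The share of 50-base windows found elsewhere was 52.5% for KRT18, 39.7% for KRT8, 39.1% for KRT6A and 3.99% for KRT5. The order of genes close in level is therefore uncertain, and so are the per-kilobase pair ratios further on. In the TPA libraries KRT18 (mean 1918 ± 690.0 CPM per kb) and KRT8 (1220.4 ± 563 CPM per kb) came first, followed by KRT5 at 140.4 ± 98.8 (SD, n = 3). In the DMSO libraries the order of means was KRT18 (650.2 ± 60.0), KRT5 (519.5 ± 303) and KRT8 (455 ± 42.0 CPM per kb), where KRT5 ran from below the range of both others to within that of KRT18. KRT18 was above KRT8 in every DMSO library. Next in both groups came KRT15, with 59.2 ± 40.9 CPM per kb with TPA and 70.7 ± 51.5 with DMSO, and KRT17, with 50.8 ± 33.1 CPM per kb with TPA and 60.4 ± 24.5 with DMSO. KRT15 and KRT17 did not differ from each other beyond their spread. KRT6A reached 6.54 ± 5.14 CPM per kb with TPA and 0.501 ± 0.295 with DMSO, and KRT34 reached 5.65 ± 0.443 with TPA and 0.619 ± 0.415 with DMSO. The hair keratins that rose stayed far below KRT8 and KRT18 in level.

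The make-up of the keratin pool differed between the groups more than its size. All keratins together took 0.269%, 0.643% and 0.622% of all counts with TPA and 0.263%, 0.419% and 0.460% with DMSO, which overlap. Of the keratin counts, the simple epithelial class held 92.8%, 85.5% and 84.7% with TPA and 73.4%, 41.0% and 43.6% with DMSO. The basal class held 3.60%, 10.0% and 10.8% with TPA and 18.9%, 51.7% and 49.1% with DMSO. Neither class overlapped between the groups, the simple class being higher and the basal class lower with TPA, and within each group number 1 had the largest simple share. As shares of 1 total these are tied, so that a higher simple share leaves less for the basal class. KRT5 and the KRT8 and KRT18 pair make up most of both. The suprabasal class, mostly KRT80, held 2.10% to 2.41% with TPA and 4.05% to 5.39% with DMSO. The stress class held 0.766%, 1.85% and 2.12% with TPA and 2.10%, 3.25% and 2.90% with DMSO, which overlap in counts but not per kilobase. A lower share is not a lower level. In summed CPM the basal, suprabasal and stress classes all overlapped between the groups. The stress class averaged 101 CPM with TPA and 99.0 CPM with DMSO, and the suprabasal class 127 and 156 CPM. The hair shaft class held 0.703%, 0.235% and 0.275% with TPA and 0.197%, 0.0498% and 0.0729% with DMSO, all TPA libraries being higher. Without TPA 1 the difference in the hair shaft share was 0.148 percentage points, against 0.298 on all libraries, and in the stress share -0.761, against -1.17. The difference in the share of all counts, 0.131 percentage points, was 0.252 without TPA 1, 0.0651 without TPA 2, 0.0755 without TPA 3 and 0.0719 without DMSO 1. No p is given for these sums, as the members were chosen with results known.

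**Figure D3:**
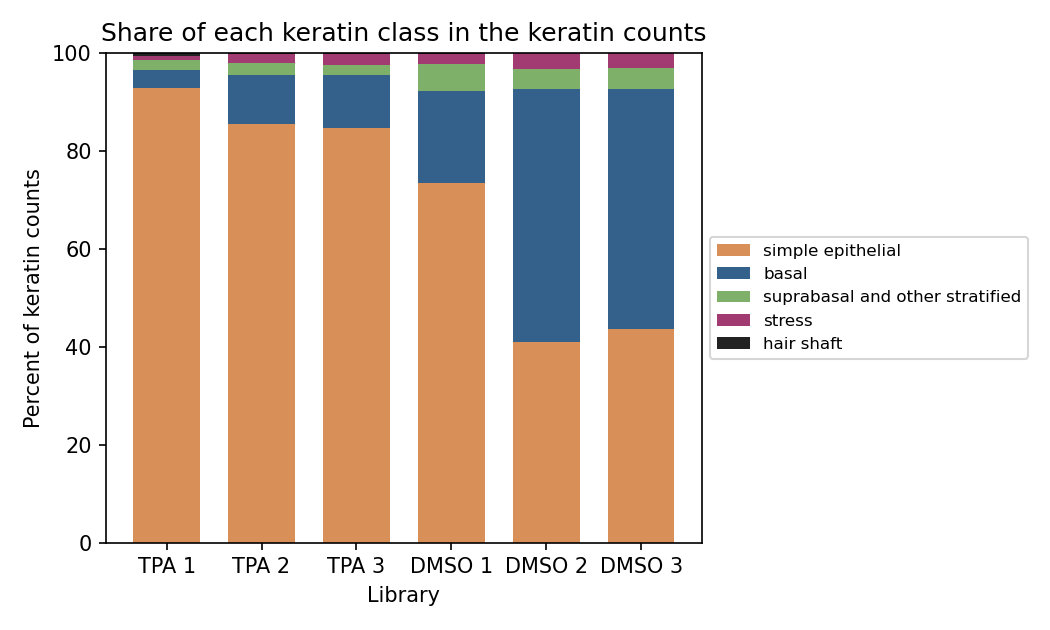
Percent of the keratin counts of each library that fell in each keratin class, TPA libraries left and DMSO libraries right. The simple epithelial class fills 84.7% to 92.8% of the TPA bars and 41.0% to 73.4% of the DMSO bars, and the basal class 3.60% to 10.8% of the TPA bars and 18.9% to 51.7% of the DMSO bars.

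Pair by pair, the balance of type II to type I keratins was measured within a library, where depth cancels. Of 10 listed pairs, 4 had both members tested. A comparison of 3 libraries with 3 cannot give an exact two-sided permutation p below 0.10, so no p is given. The log2 ratio of KRT5 to KRT14 counts was 3.46, 3.74 and 3.83 with TPA and 6.05, 6.49 and 6.60 with DMSO. The TPA libraries lay below the DMSO libraries with a narrow spread, by 2.59, 2.75 and 2.77 in numbers 1, 2 and 3, although each gene alone varied several-fold between numbers. Per kilobase, KRT5 was 7.22, 8.77 and 9.34 times KRT14 with TPA and 43.5, 58.9 and 63.9 times with DMSO. The KRT5 to KRT15 ratio was 1.22, 1.30 and 1.36 on the log2 scale with TPA and 3.99, 2.85 and 2.89 with DMSO, again without overlap. Its difference was -1.95, and -1.57 without DMSO 1.

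The stress pair went the other way. The log2 ratio of KRT6A to KRT16 counts was 0.689, 1.19 and 0.754 with TPA and -2.11, -2.79 and -2.15 with DMSO, so KRT6A had more reads than KRT16 in every TPA library and fewer in every DMSO library. The difference was 2.80, 3.98 and 2.91 in numbers 1, 2 and 3, and number 1 was close to the others although both genes were low there. Per kilobase, KRT6A was 1.15, 1.63 and 1.20 times KRT16 with TPA and 0.165, 0.103 and 0.160 times with DMSO. The simple pair kept closer to its balance: the log2 ratio of KRT8 to KRT18 counts was -0.671, -0.280 and -0.276 with TPA and -0.382, -0.179 and -0.0655 with DMSO. These overlap, and the TPA library was lower in each number by 0.289, 0.101 and 0.211.

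**Figure D4:**
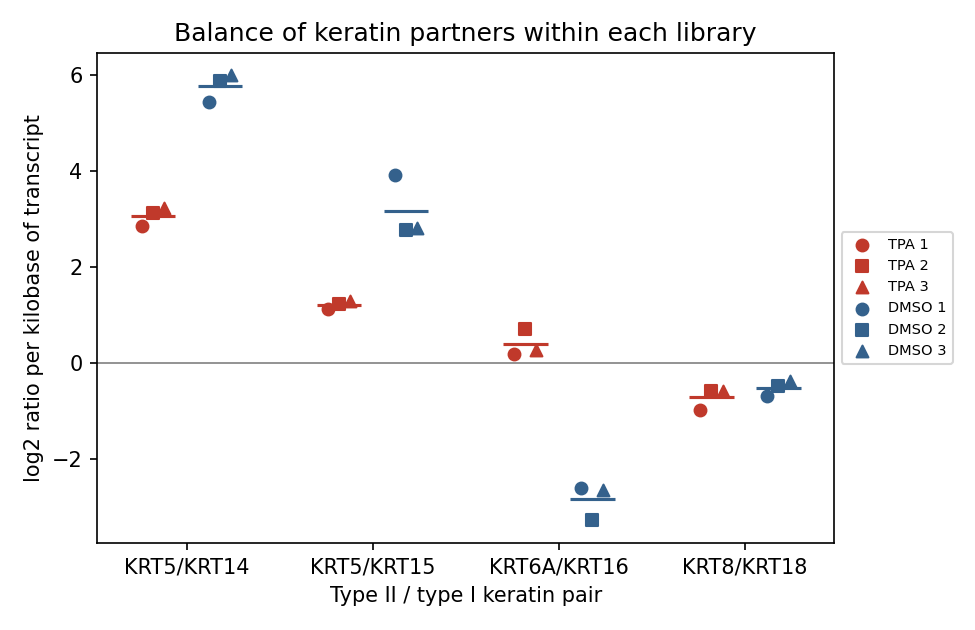
Log2 ratio of the type II to the type I partner per kilobase of transcript in each library, for the 4 pairs with both members tested (TPA in red, left of DMSO in blue, bars at group means). KRT5/KRT14 and KRT5/KRT15 are lower and KRT6A/KRT16 is higher in all TPA libraries, and KRT8/KRT18 overlaps.

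Genes that control or anchor keratins were read from lists. Of 27 transcription factors known to act on keratin genes or on squamous differentiation, 24 were tested, 2 rose and none fell (0.861% of all genes were called higher), with a median log2 fold change of 0.49 (all genes -0.11). PRDM1, the repressor also called BLIMP1, had 26.9, 7.86 and 9.65 CPM with TPA and 0.197, 0.122 and 0.358 CPM with DMSO. The groups were far apart, with TPA 1 the highest (log2 fold change 6.02 ± 0.68, adjusted p = 0.0250). JUNB, an AP-1 subunit, had 188, 280.1 and 281 CPM with TPA and 104, 97.1 and 106 CPM with DMSO, also without overlap (1.29 ± 0.23, adjusted p = 0.0498). The call of JUNB was lost without any of TPA 2, TPA 3, DMSO 1, DMSO 2 or DMSO 3 (adjusted p from 0.0931 to 0.330), and also with upper-quartile factors (0.0566) or library size only (0.0544), and that of PRDM1 without TPA 3, DMSO 1, DMSO 2 or DMSO 3 (0.0559 to 0.234). With the block, where 4.58% of all genes passed as higher and 6.52% as lower, GRHL3, OVOL1, CEBPB and FOSL1 also passed as higher and TP63, the master regulator of squamous cells and an activator of KRT5 and KRT14, as lower. TP63 had 72.1, 101 and 113 CPM with TPA and 156, 280.0 and 224 CPM with DMSO (block log2 fold change -1.19 ± 0.24, adjusted p = 0.0144, against 0.0752 without the block).

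None of 16 genes for desmosomal and other filament linkers passed the test, nor did any of the 10 tested of 16 other intermediate filament genes. At an unadjusted p under 0.05 there were 4 of 16 linkers and 2 of 10 other filament genes (22.1% of all genes), and DESeq2 called 1 linker and 0 other filament genes (12% of all genes). The median log2 fold change was 0.34 over the linkers and 0.05 over the other filament genes. DSP, which ties keratins to desmosomes, had 599.8, 279 and 339 CPM with TPA and 626, 994 and 793 CPM with DMSO (-0.99 ± 0.33, adjusted p = 0.142). JUP, its plakoglobin partner, had 425, 854 and 827 CPM with TPA and 385, 419 and 408 CPM with DMSO (0.80 ± 0.28, adjusted p = 0.163). The 2 junction genes lay on opposite sides without overlap, and neither passed. SYNM, synemin, had 2.10, 4.27 and 5.15 CPM with TPA and 6.06, 11.8 and 10.3 CPM with DMSO, and passed as lower with the block (-1.33 ± 0.26, adjusted p = 0.0123, against 0.126 without), as it did without the libraries numbered 1 (adjusted p = 9.41e-06). IFFO2, a distant relative of the family, had 20.0, 53.8 and 52.1 CPM with TPA and 64.6, 79.8 and 92.1 CPM with DMSO, and passed with the block at -1.02 ± 0.28 (adjusted p = 0.0401, against 0.223 without). LMNB1, a nuclear lamin, and the linker HRNR also passed as lower with the block (adjusted p = 0.0257 and 0.0292). Over all genes, 6.52% passed as lower with the block and 33.3% without the libraries numbered 1. VIM, the filament gene of mesenchymal cells, had 4.06 to 5.80 CPM with TPA and 2.61 to 4.34 CPM with DMSO and did not pass (adjusted p = 0.306).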

How the data were processed

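Total RNA of 3 TPA and 3 DMSO samples of KYSE150 was sequenced after TRIzol extraction, per the labels' protocols. The deposited values are raw counts per gene symbol from the authors, with no normalization. The submitters' processing notes name the aligner HISAT2 2.1.0, the read counter HTSeq 0.12.4 and the builds hg38 and GRCh38. Strand setting, read layout and annotation release were not given there. A control column was taken as the DMSO sample that shares its number, and 0 columns fell outside the labels.

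The groups were compared with edgeR 4.0.16 (R 4.3.3), using quasi-likelihood F-tests on 21825 genes kept by filterByExpr, TMM factors and no term but the group, with p adjusted over all of them (Benjamini-Hochberg, 0.05). Standard errors are the log2 fold change over the square root of F. The steps were run on simulated counts with known changes. These counts had no effect of library number and no trend with GC content, so they do not test the fits under those features. CPM is the deposited count over the TMM-scaled library size, and log2 ratios within a library number or a pair used counts plus 0.5. Where a library had no count of a gene, its level could still be up to 0.0915 to 0.109 CPM (3 counts). That floor covers counting error only, as reads were counted without molecular identifiers and are not independent molecules.

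The keratin rows and the lists of linkers, regulators and markers were chosen with earlier results of these data known. Keratins were named where the average log2 CPM was at least 1 or the test was passed (13 genes), and from each list the members that passed, else the 2 with the lowest p. Other genes named were chosen after their values were seen. Same-numbered libraries deviated from their group means together (r = 0.66, 0.43 and 0.67 over 11892 genes), and on that basis the numbers were treated as pairs, which no label states. TPA 3 with DMSO 2 (0.48) and TPA 2 with DMSO 3 (0.66) were as close, so numbers 2 and 3 are not told apart.

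Gene positions, transcript length (the shortest principal transcript) and GC content came from GENCODE 29 on GRCh38, matched by symbol. Promoters came from RefSeq on GRCh38.p14, with 34 keratin genes matched. The GC correction removed each library's trend on GC content, fitted with a spline of 5 degrees of freedom. The alternatives were other scalings (RLE, upper-quartile or the library size alone), other filters (none, or 1 CPM in every library of a group), DESeq2 1.42.0, limma-voom (limma 3.58.1), the block, the GC correction with and without it, each library left out, both libraries numbered 1 left out, shares per kilobase or with pseudogene rows, and a pseudocount of 2. Those for the lists, and each library left out for the shares, were added after seeing the data.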

Additional observations from a re-analysis of the deposited data

How the results depend on the processing

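Calls depended on the processing far more than directions did. Of all 21825 genes tested 274 passed, against 2617 with DESeq2 and 2423 with the replicate block. With no filter 631 of 40368 passed. GC correction and block gave 4469 of 21023, and GC correction alone 1464 of 21023. Without both libraries numbered 1 it was 14691 of 22421. With 1 library left out it ran from 0 without DMSO 2 or DMSO 3 to 11874 of 22633 without TPA 1. Of the 15 keratins tested 2 passed, against 7 (DESeq2), 7 (block), 9 (GC correction and block) and 4 (GC correction). It was 5 of 44 with no filter and 13 of 18 without number 1. With 1 library left out it was 11 of 18 without TPA 1, 1 of 16 without TPA 2 and 2 of 19 without DMSO 1. It was 0 without TPA 3, DMSO 2 or DMSO 3. KRT33B and KRT34 passed in every fit that kept all 6 libraries. Of the keratin regulators 2 of 24 tested passed, against 1 with upper-quartile factors or library size only (JUNB lost). It was 5 (no filter), 7 (DESeq2), 7 (block), 12 (GC correction and block) and 5 (GC correction). Without number 1 it was 22, and with 1 library left out 0 to 16. For filament linkers the 0 of 16 tested became 1 (DESeq2), 1 (block) and 4 (GC correction and block). Without number 1 it became 15, and with 1 library left out 0 to 12. For other intermediate filament genes the 0 of 10 tested became 3 (block), 3 (GC correction and block) and 2 (GC correction). Without number 1 it became 8, and with 1 library left out 0 to 5. The counts of these lists stand beside those of all genes in the same fit, which without number 1 were 14691 of 22421.

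The sign turned only for keratins that did not pass on all 6 libraries without a block. The log2 fold change of KRT10 was -0.087 by library size only, -0.14 with GC correction and block and -0.14 with GC correction. That of KRT16 was -0.10 with limma-voom, -0.0043 with the block, -0.38 with GC correction and block, -0.19 with GC correction and -0.23 to 0.99 with 1 library left out. KRT17 was at 0.061 without number 1 and at -0.58 to 0.32 with 1 library left out. KRT15 ran from -0.76 to 0.34 and KRT80 from -0.72 to 0.077 with 1 library left out. The difference in the suprabasal share was -1.40 percentage points per kilobase, against -2.39, and in the stress share -1.84, against -1.17. The median of all genes was -0.36 by library size only, against -0.11. The cause of these shifts was not tested. The differences in pair ratios moved by less than the pooled SD of both groups under each alternative run. The most moved was KRT5/KRT15, at -1.54 without number 1 and -1.57 without DMSO 1, against -1.95, where DMSO 1 makes most of that SD. Depth limits the 29 keratins with counts too low for the test.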
